A study of Homo sapiens with 20 samples.

Results

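The 183 microRNAs (miRNAs) described here carry names numbered from miR-6715 to miR-6895. They were chosen by that number, with either arm of a hairpin accepted, and by holding at least 20 reads summed over all 20 libraries. The files name 354 mature miRNAs in that range, of 2588 in all. The other 171 fell under the minimum. Exactly 20 reads were held by 3 members (miR-6743-5p, miR-6748-3p and miR-6810-5p), while miR-6730-5p, with 19 reads, lay just outside. Summed reads chose the members, so the level of the set as a whole is a description.

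An animal miRNA is usually cut from its primary transcript by the nuclear nuclease DROSHA and then trimmed by DICER. A mirtron is a short intron that folds into a hairpin, so that the spliceosome makes the cuts that DROSHA would make. A tailed mirtron has only one of its hairpin ends at a splice site, and the extra intron sequence at the other end has to be removed. Mirtrons of mammals are typically of low abundance, with a G-rich 5p arm and a pyrimidine-rich 3p arm that ends at the 3′ splice site.

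Small RNA was sequenced from HCT116, a human colon cancer line, and HEK293E, a line from human embryonic kidney cells. Knockout cells of both lines, lacking DROSHA, were given back either the full-length protein or the shorter DROSHA-p140, which makes 4 groups of 3 libraries. All of those cells thus lack their own DROSHA, and the labels do not say whether a knockout is 1 clone or how the rescue is driven. HCT116 knockout cells given GFP and untreated wild-type HCT116 cells gave 1 library each. Wild-type HCT116 cells cultured 72 hr with fetal bovine serum (FBS) at 9.1% or 0.1% gave 3 libraries each. Nothing in the labels says that replicates were separate cultures, so every p-value speaks only of spread among libraries, which may be technical.

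The libraries held 38288 (knockout with GFP) to 2822317 miRNA reads. Replicate 3 stood apart from replicates 1 and 2 in the HCT116 rescue groups and in the serum experiment, so the main counts below are also given without it. A list of 8 colon epithelial miRNAs (the miR-200 family, miR-192, miR-194 and miR-215) summed to 40218 to 52829 CPM (reads divided by the miRNA reads of the library, on the usual scale) in the 7 wild-type HCT116 libraries and to 322 to 562 CPM in the 6 rescued HCT116 libraries. The rescued HCT116 cells thus lacked most of that signal, and their range overlapped the 470 to 682 CPM of the HEK293E libraries, while the knockout with GFP held 4989 CPM. A list of 4 miRNAs high in HEK293 cells summed to 92608 to 150901 CPM in HEK293E and 8040 to 12154 CPM in rescued HCT116 cells. Lists of blood, muscle, neural and liver miRNAs summed to at most 953, 66.6, 526 and 48.6 CPM in any library. The part of these differences in the results below was not tested. As a check of the knockout, 7 canonical miRNAs, which need DROSHA, summed to 530405 CPM in untreated wild type and to 75768 CPM in the knockout with GFP.

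The mature sequences below, from RefSeq for GRCh38.p14, are examples from members with many reads. They are written 5′ to 3′, and capitals mark the seed, bases 2 to 8.
miR-6724-5p: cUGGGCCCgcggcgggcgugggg
miR-6789-5p: gUAGGGGCgucccgggcgcgcggg
miR-6877-5p: aGGGCCGAaggguggaagcugc
miR-6765-3p: uCACCUGGcuggcccgcccag
miR-6777-3p: uCCACUCUccuggcccccag
miR-6803-3p: uCCCUCGCcuucucacccucag
miR-6799-3p: uGCCCUGCaugguguccccacag
miR-6741-3p: uCGGCUCUcucccucacccuag
The 3 lines of 5p arms are rich in g, whereas all 5 lines of 3p arms end in ag. Not every 3p member does, since miR-6797-3p ends in ac and miR-6800-3p in cc.

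That contrast held over the set. RefSeq gave a mature sequence for 155 of the 183 members. The 3p members ended in AG in 76 of 97 cases (78.4%), against 67 of 640 (10.5%) of 3p miRNAs outside the number range. Pyrimidines made up 72.8 ± 8.61% (SD over 97 miRNAs) of a 3p member and 53.5 ± 13.7% (SD over 640) of the others. The motif GGGG, searched on the miRNA strand only, was found in 34 of 58 5p members (58.6%) and in 67 of 629 other 5p miRNAs (10.7%). G made up 48.5 ± 9.03% of a 5p member and 28.9 ± 12.1% of the others. The seeds were nearly all different, with 6 seeds shared by 2 members each and 149 distinct seeds in all. One of the shared seeds, CUCACCC, belonged to miR-6784-3p and miR-6862-3p.

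The members came from 128 hairpins. Against GENCODE 29 introns on the same strand (hg38), 121 of these (94.5%) had an end within 5 nt of an annotated splice site, against 76 of 1558 hairpins (4.88%) outside the number range. In 10 hairpins (7.81%) both ends lay within 5 nt of the splice sites of 1 intron, the layout of a classical mirtron. In 106 the 3′ end alone lay at a splice site, in 5 the 5′ end alone, and 0 were exonic. The hairpin ended exactly on the last base of an intron in 116 of 128 (90.6%) and in 49 of the 1558 others (3.15%). Of 109 3p members on these hairpins 86 ended on that last base, whereas 7 of 66 5p members started on the first base of the intron. The introns that met a hairpin had a median length of 239 nt (quartiles 96 and 875, range 74 to 9210). Of the 121 introns 47 were shorter than 150 nt and 26 longer than 1000 nt.

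**Figure D1:**
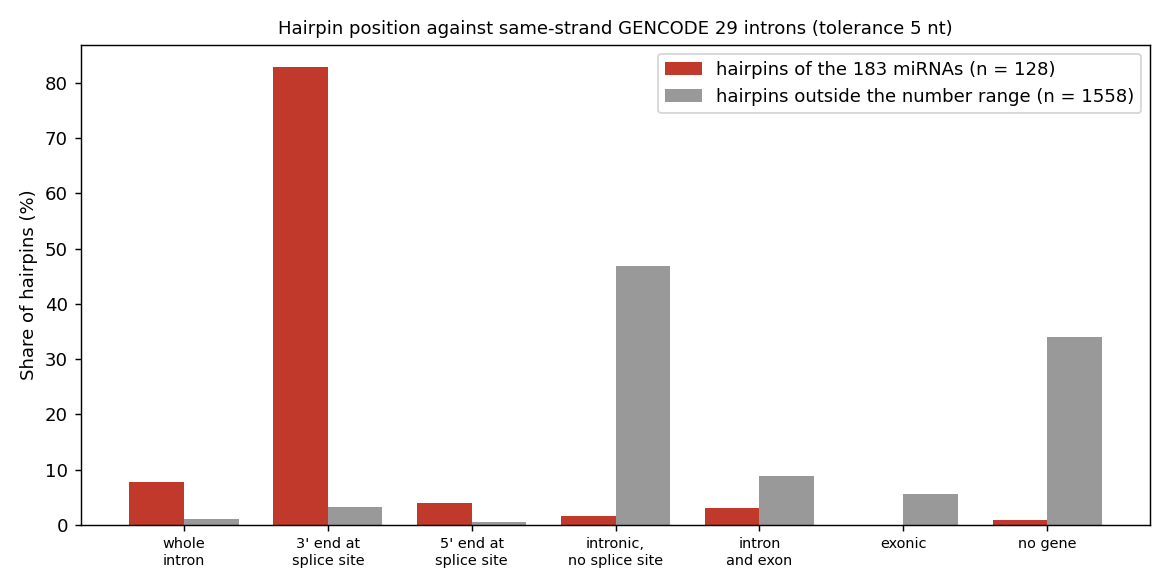
Share of hairpins (%, linear axis from 0) in each position class relative to annotated introns, for the 128 hairpins of the 183 miRNAs (red) and the 1558 hairpins outside the number range (grey). Of the first 82.8% have only their 3′ end at a splice site, against 3.27% of the second.

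The hairpins below show the 2 layouts. The intron's first 2 and last 2 bases are in capitals where the hairpin holds them, and sequences are from RefSeq for GRCh38.p14, 5′ to 3′ on the strand of the gene.
MIR6765: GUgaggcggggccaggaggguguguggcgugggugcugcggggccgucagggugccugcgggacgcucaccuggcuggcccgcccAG
MIR6807: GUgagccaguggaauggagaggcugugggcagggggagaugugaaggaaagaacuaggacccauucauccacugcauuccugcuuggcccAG
MIR6777: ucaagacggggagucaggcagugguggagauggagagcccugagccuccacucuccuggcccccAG
MIR6803: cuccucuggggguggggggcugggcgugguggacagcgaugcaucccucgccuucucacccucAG
The first is the whole 87 nt intron of JAG2, a Notch ligand (chr14:105150778-105150864, minus strand). The next is the whole 92 nt intron of TRIM28, a transcriptional corepressor (chr19:58550285-58550376, plus strand). The other 2 start 23 and 14 nt inside their introns and end on the last base. MIR6777 lies in an 89 nt intron of SREBF1, a transcription factor of lipid synthesis (chr17:17813480-17813545, minus strand). MIR6803 lies in a 79 nt intron of PPP6R1, a regulatory subunit of a protein phosphatase (chr19:55245186-55245250, minus strand).

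The members were scarce. Together they held 16583 of 18182056 reads (0.0912%), with a median of 44 reads per member over all 20 libraries. Only 35 members reached 100 reads, and the 12 with most reads held 40.03% of the members' reads. In all 8 groups at least 1 read was found for 39 members, and in all 6 replicated groups for 156. Counting error is therefore large for most single members, and intervals given below cover counting error only.

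The members took the smallest share of miRNA reads in untreated wild-type cells and the largest in the knockout with GFP. The share was 0.0105% (95% exact interval 0.00845 to 0.0129) in the untreated wild-type library and 1.47% (1.35 to 1.60) in the knockout with GFP. With full-length DROSHA in HCT116 it was 0.122%, 0.129% and 0.0987% in replicates 1 to 3. With p140 in HCT116 it was 0.499%, 0.504% and 0.272%. In HCT116 all p140 libraries were above all full-length libraries, with replicate 3 the lowest in both groups. The means were 0.425 ± 0.132% and 0.117 ± 0.0161% (SD, n = 3 each), a ratio of 3.64 (exact two-sided permutation test p = 0.1, the smallest value that 3 against 3 libraries can give). HEK293E libraries with full-length DROSHA held 0.346%, 0.484% and 0.315%, and those with p140 held 0.515%, 0.560% and 0.459%. These groups overlapped, with a ratio of means of 1.34 (0.511 ± 0.0505% against 0.381 ± 0.0900%, n = 3 each, exact permutation p = 0.2). In the serum experiment the share was 0.0386%, 0.0341% and 0.0276% in 9.1% FBS and 0.0234%, 0.0226% and 0.0173% in 0.1% FBS. All libraries in low serum lay below all libraries in high serum, with a ratio of means of 0.631 (0.0211 ± 0.00334% against 0.0334 ± 0.00551%, n = 3 each, exact permutation p = 0.1). A share of miRNA reads moves with every other miRNA of a library, and in bulk RNA fewer cells of a type and less RNA per cell cannot be told apart.

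A list of 27 miRNAs taken here as made without DROSHA gives another base for the same reads. Whether each of them needs no DROSHA was not tested. It holds miR-877, miR-1224 to miR-1229 and miR-1236 to miR-1238, named as mirtrons, the capped-hairpin miRNAs miR-320 and miR-484, and miR-3615. Its reads were mostly those of miR-320a, with 500954 over the 20 libraries, and the next, miR-484, had 65854. A ratio to the list, or a scaling by it, is therefore mainly one to miR-320a and not to mirtrons in general. Per 1000 reads of that list, the members held 26.7 ± 5.30 reads with full-length DROSHA and 27.2 ± 7.32 with p140 in HCT116 (SD, n = 3 each, exact permutation p = 1). The corresponding values in HEK293E were 32.1 ± 8.28 and 27.4 ± 0.780 (exact permutation p = 0.4, n = 3 each). The members and that list thus stood in overlapping ratios under both forms of DROSHA. In the serum experiment the ratio separated the groups, with 29.6 ± 0.609 in 9.1% FBS and 15.8 ± 1.17 in 0.1% FBS (n = 3 each, exact permutation p = 0.1). The list itself was not uniform there. Of its 14 miRNAs tested 7 were higher in low serum, miR-320a among them, and 3 lower, all arms of miR-877 or miR-1226. The knockout with GFP held 19.3 and the untreated wild type 7.57 member reads per 1000 list reads.

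**Figure D2:**
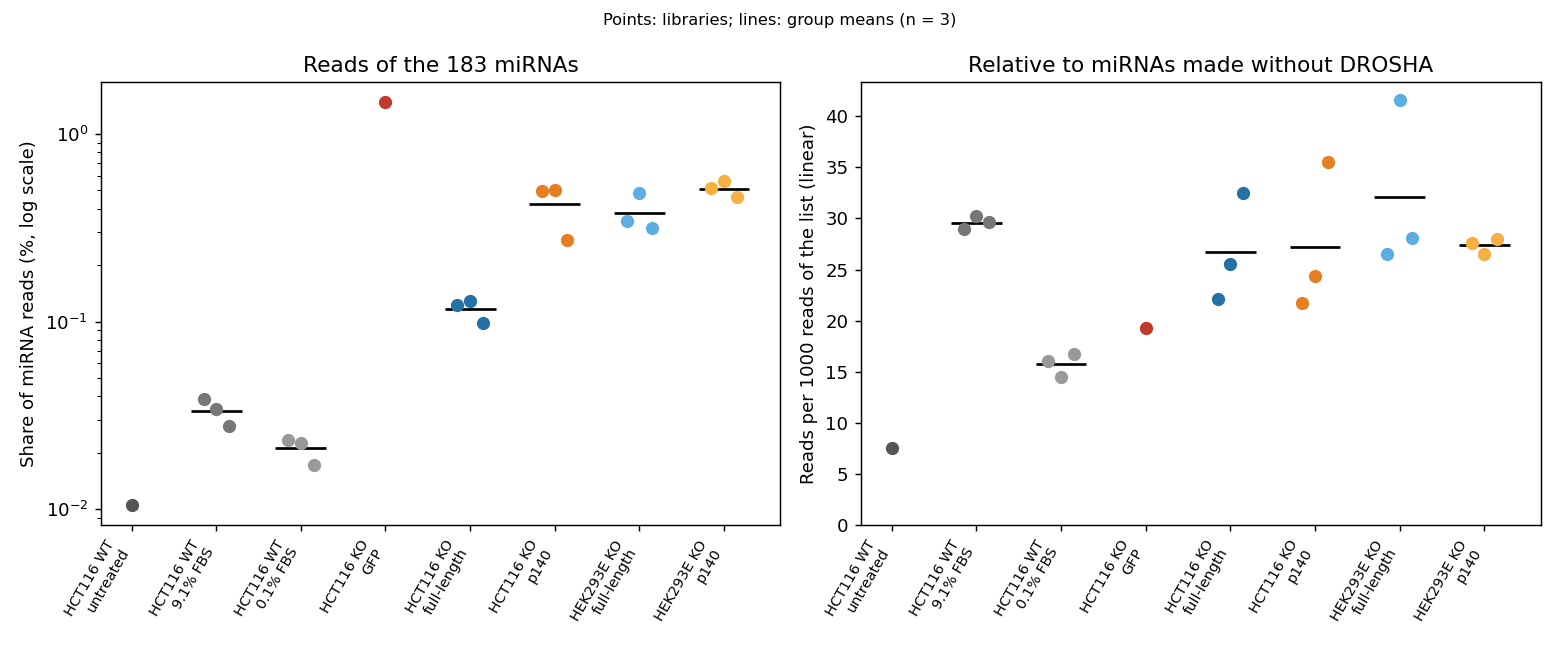
Left, share of all miRNA reads (%, log axis) held by the 183 miRNAs in each of the 20 libraries. Right, their reads per 1000 reads of the list of miRNAs made without DROSHA (linear axis from 0), with bars at group means (n = 3). The share runs from 0.0105% in untreated wild type to 1.47% in the knockout with GFP, whereas the right panel runs from 7.57 to 41.6.

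Retention in the knockout was described from 1 library a group, without replicate check. In the knockout with GFP the members held 564 of 38288 reads, and in untreated wild type 90 of 856658 reads. The ratio of CPM was 140 (95% exact interval 112 to 177), whereas the list of miRNAs made without DROSHA was 54.9-fold higher (53.8 to 56.1). The list took 76.2% of the reads of the knockout with GFP and 1.39% in wild type. By position, the 16 members on whole-intron hairpins were 214-fold higher (108 to 483), with 86 reads against 9. The 160 members with 1 hairpin end at a splice site were 145-fold higher (112 to 192), and the 7 others 81.6-fold higher (47.1 to 149). These 3 intervals overlap one another.

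Reads were found for 134 members in the knockout library and for 54 in the deeper wild-type library. At least 5 reads in the knockout were held by 31 members. Of these, 20 held 5 to 9 reads and 11 held 10 or more. No member reached 10 reads in wild type, where the highest count was 9, so each of the 11 with a ratio passed the 10-read minimum through the knockout and had to be higher there. Of the 434 miRNAs that reached 10 reads in at least 1 of the pair, 28.8% were at least 4-fold higher in the knockout, and the median log2 ratio was -0.18.

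miR-6886-5p had most knockout reads of any member, 66 against 3 in wild type, a 492-fold higher CPM (161 to 2448). The 5p arms of miR-6850, miR-6789 and miR-6891 held 17, 16 and 15 knockout reads against 1 read each in wild type. Their hosts are RPL8 (a ribosomal protein), PLEKHJ1 and HLA-B (a class I histocompatibility antigen). The 2 members outside splice sites had the smallest ratios of the 11, namely miR-6724-5p at 89.5 (40.4 to 225; 32 reads against 8) and miR-6723-5p at 57.2 (25.5 to 140; 23 reads against 9). miR-6844, which lies at the end of an 88 nt intron of TATDN1, had 23 reads against 0 and was at least 172-fold higher when 3 reads are set as the floor of the wild-type library. miR-6777-3p (17 against 2), miR-6747-3p (13 against 2), miR-6765-3p (12 against 2) and miR-6797-3p (10 against 2) lay between, at 190, 145, 134 and 112-fold. The log2 ratios of the 11 ran from 5.84 to 8.94 with a median of 7.42. Relative to the list of miRNAs made without DROSHA they ran from 0.06 to 3.16 with a median of 1.64, so on that scale the lowest, miR-6723-5p, was close to the list.

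The 12 members with most reads show how levels ran across the groups. miR-6724-5p, the most abundant at 1023 reads, is listed at 4 near-identical copies on chromosome 21 with 811 to 1023 reads each, and its reads cannot be assigned to 1 of them. The copy used (chr21:8388372-8388394, plus strand) lies in an intron of the non-coding gene FP236383.1, far from a splice site. Its CPM was 9.34 in untreated wild type, 42.2 ± 15.7 in 9.1% FBS, 18.8 ± 7.97 in 0.1% FBS and 836 in the knockout with GFP. In the rescued cells its CPM was 54.3 ± 16.7 (HCT116 full-length), 184 ± 96.1 (HCT116 p140), 182 ± 42.3 (HEK293E full-length) and 329 ± 35.5 (HEK293E p140; SD, n = 3 each). The knockout was highest and untreated wild type lowest, and the means of HCT116 p140 and HEK293E full-length, neighbours in that order, did not differ beyond their spread.

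miR-6886-5p reached 1724 CPM in the knockout with GFP, the highest level of any of the 12 in any library. It was 3.50 CPM in untreated wild type and 4.12 to 8.82 CPM in the 6 libraries of the serum experiment. With full-length DROSHA it stood at 76.9, 142 and 52.4 CPM in HCT116 and at 71.4, 81.6 and 68.5 CPM in HEK293E. With p140 it stood at 456, 547 and 190 CPM in HCT116 and at 44.4, 124 and 73.2 CPM in HEK293E. All HCT116 p140 libraries were thus above all full-length libraries, while the HEK293E groups overlapped.

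miR-6723-5p (chr1:632382-632403, minus strand) lies in an intron of AL669831.3 and opposite MTCO1P12, a nuclear copy of a mitochondrial gene. Whether the counting used strand is not given in the sources used here, so reads of the copy, of the mitochondrial gene and of the miRNA cannot be told apart. In HCT116 it held 41.9 to 66.4 CPM with full-length DROSHA and 79.5 to 288 CPM with p140. In HEK293E it held 34.3 to 77.4 and 48.6 to 88.8 CPM.

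For miR-6844 replicate 3 was the highest library of both HCT116 rescue groups. Its CPM in replicates 1 to 3 was 45.4, 69.8 and 151 with full-length DROSHA and 117, 262 and 425 with p140 in HCT116. The groups overlapped over all replicates, whereas within each replicate number p140 was higher. In HEK293E its CPM was 147, 42.9 and 32.8 with full-length DROSHA and 207, 27.0 and 48.8 with p140.

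Among the 12, 3 rows were nearly equal in most libraries. miR-6767-5p (421 reads), miR-6767-3p (415) and miR-6768-3p (446) differed by at most 2 reads in 18, 16 and 14 of 20 libraries in the pairs miR-6767-5p with miR-6767-3p, miR-6767-5p with miR-6768-3p, and miR-6767-3p with miR-6768-3p. The hairpins lie in separate genes on chromosome 16, CCNF (cyclin F) and TEDC2, with 18553 bases between the last pair. miR-6768-5p (540 reads) was less close, within 2 reads of miR-6767-5p in 3 of 20 libraries, with a summed difference of 12.4% of the reads of both. Their mature sequences differ.
miR-6767-5p: uCGCAGACagggacacauggaga
miR-6767-3p: cCACGUGCuucucuuuccgcag
miR-6768-5p: cACACAGGaaaagcggggcccug
miR-6768-3p: cAAAGGCCacauucuccugugcac
How reads spanning several annotated features were counted is not given in the sources used here, and the part of the counting in these like rows was not tested. Without the 4 rows of miR-6767 and miR-6768 the comparisons below call 25 members in place of 29 (HCT116, p140), 1 in place of 1 (HEK293E, p140), 2 in place of 2 (serum), 17 in place of 21 (between the lines) and 0 in place of 0 (interaction).

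The remaining members of the 12 differed in their order between the lines. miR-6747-3p, from an intron shared by EEF1G (a subunit of a translation elongation factor) and AP002990.1, held 15.7 to 34.3 CPM in HCT116 and 143 to 305 CPM in HEK293E with full-length DROSHA. miR-6797-3p, from the RPS19 ribosomal protein gene, held 18.3 to 30.3 and 83.4 to 142 CPM. In the opposite order, miR-6765-3p of JAG2 held 45.4 to 64.1 CPM in HCT116 and 14.9 to 47.2 CPM in HEK293E, with overlap. For miR-6777-3p of SREBF1 the lines overlapped too, with 27.5 to 36.6 CPM in HCT116 and 31.2 to 60.1 CPM in HEK293E. Its mean CPM was the higher in HEK293E, at 41.4 against 32.7.

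**Figure D3:**
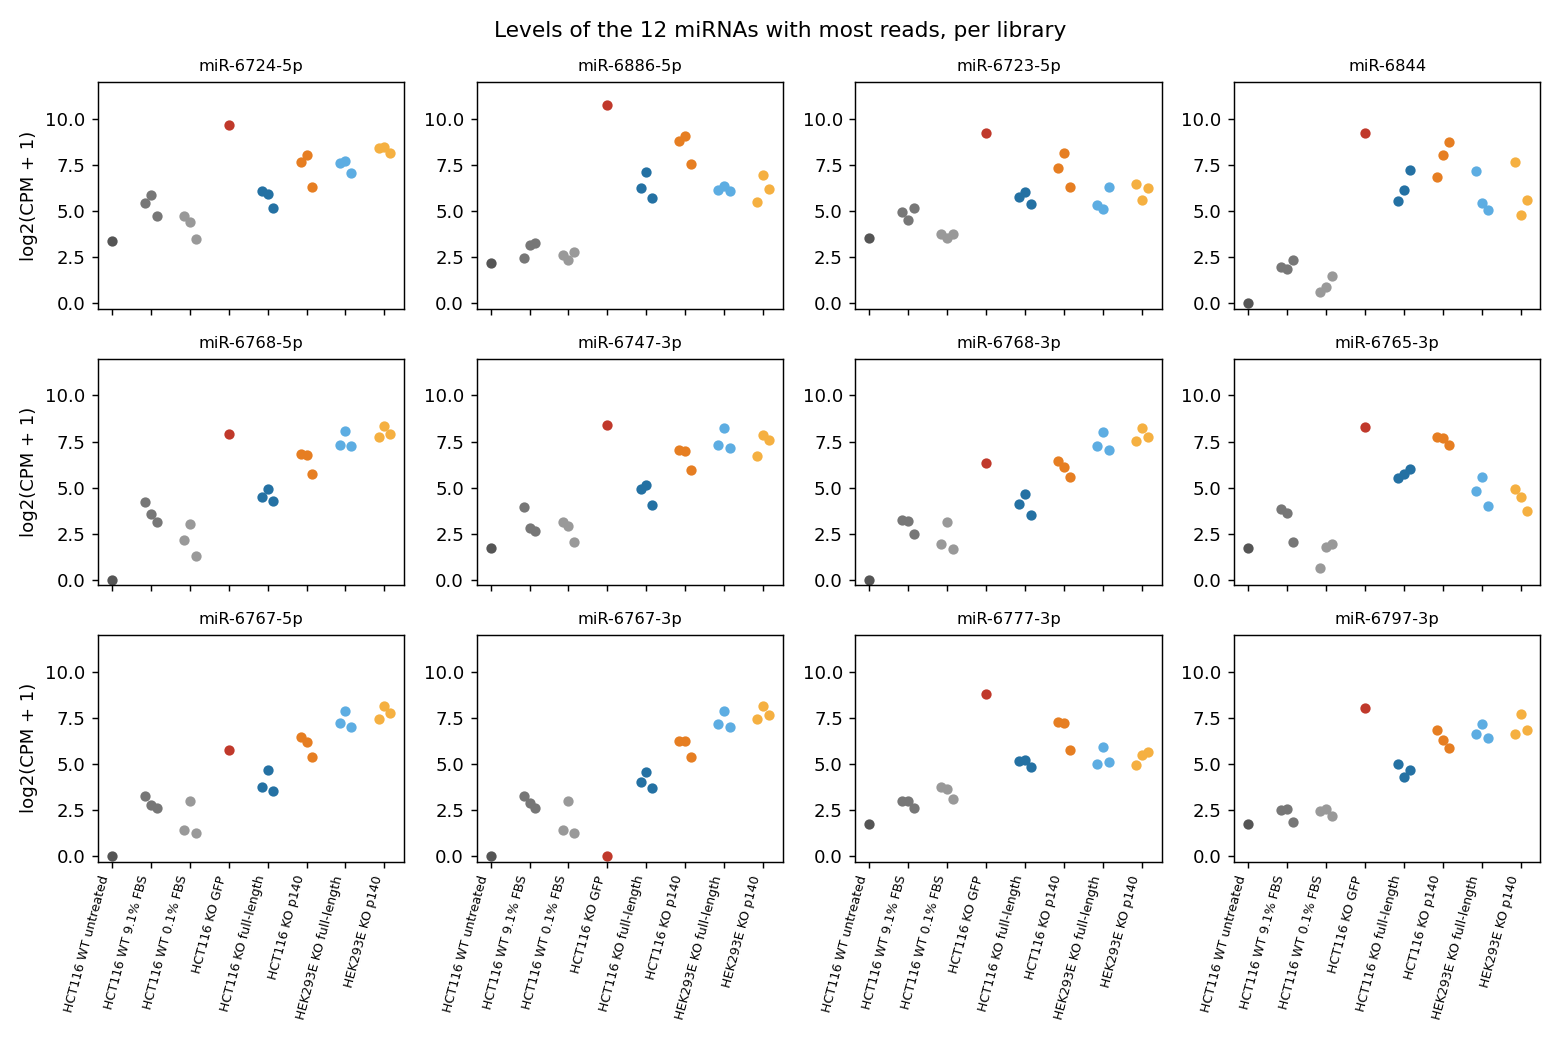
Levels of the 12 miRNAs with most reads as log2(CPM + 1) in each library, 1 panel per miRNA, with colours for the 8 groups named on the x axis. The knockout with GFP (red) is the highest point for miR-6886-5p and miR-6724-5p, whereas miR-6767-3p had 0 reads there.

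The 3 miRNAs most alike to miR-6724-5p in log2 CPM over the 20 libraries, among 283 candidates with at least 1000 reads, were miR-1292-5p (Spearman rho 0.967), miR-877-5p (0.965) and miR-1254 (0.965). These coefficients describe points that share libraries, depth and groups. miR-877-5p is itself a mirtron product.

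In HCT116 the measured members stood higher under p140 relative to the bulk of miRNAs, but not relative to the list of miRNAs made without DROSHA. Only 29 of the 183 members passed the filter on low counts. Of the 29, 21 passed it with every p140 library but not every full-length library past its level, which favours a higher value with p140. The other 8 were past its level of 18.3 CPM in every full-length library too (miR-6723-5p, miR-6724-5p, miR-6765-3p, miR-6777-3p, miR-6807-3p, miR-6844, miR-6850-5p and miR-6886-5p), and their log2 fold changes ran from 1.47 to 2.08 with a median of 1.73. All 8 were higher with p140 by edgeR's quasi-likelihood test with Benjamini-Hochberg adjustment, as were the 21, whereas 0 of the 29 passed on the scale of that list. Of all 446 miRNAs tested 28.5% were higher and 31.2% lower, 59.6% in all. As a sum, the 154 members not tested held 0.156 ± 0.0622% of reads with p140 and 0.0451 ± 0.00972% with full-length DROSHA, a ratio of 3.46 with no overlap (n = 3 each, exact permutation p = 0.1).

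With library sizes set by the list of miRNAs made without DROSHA, 0 of the 29 passed the test, also at an unadjusted p under 0.05, and their median log2 fold change was 0.11 against 1.88 in the scaling used here. That scaling moved the median of all miRNAs tested from -0.11 to -1.61. Scaled by total counts, 29 were again higher, beside 30.7% of all miRNAs. Without full-length replicate 2 or 3 the test called 19 and 16 members, all higher, beside 18.4% and 17.1% of all miRNAs higher. Without p140 replicate 3 it called 56 of 59 tested, all higher, beside 34.0% of all miRNAs. Without replicate 3 in both groups it called 48 of 49, all higher, beside 38.2% of all miRNAs.

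Among those 8 the smallest adjusted p belonged to miR-6765-3p, the arm that ends the JAG2 intron. Its CPM was 45.4, 52.6 and 64.1 with full-length DROSHA and 215, 203 and 159 with p140, which gave a log2 fold change of 1.75 ± 0.29 (SE; edgeR quasi-likelihood adjusted p = 0.00259). No libraries overlapped. Its highest full-length value and its lowest p140 value were both in replicate 3. miR-6886-5p, whose values by library are given above, had the largest log2 fold change of the 8 at 2.08.

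The members past the filter level in every p140 library but not in every full-length library are given as values only. miR-6877-5p, from an intron of GTF3C5 (a subunit of a transcription factor of RNA polymerase III), stood at 7.57, 8.01 and 3.93 CPM with full-length DROSHA and at 71.6, 36.0 and 21.4 CPM with p140, which gave 2.60 ± 0.56 on the log2 scale. miR-6784-3p, from PLCD3 (a phospholipase C), stood at 6.31, 6.87 and 3.93 CPM with full-length DROSHA and at 39.1, 49.1 and 24.5 CPM with p140, and its log2 fold change was 2.59 ± 0.44. The next of these by size were miR-6803-3p (2.12), miR-6789-5p (2.10), miR-6777-5p (2.08), miR-6847-5p (2.06) and miR-6767-5p (1.98). miR-6847-5p comes from EXOSC4, a subunit of the RNA exosome. miR-6789-5p, from a whole-intron hairpin, stood at 26.5, 29.8 and 14.4 CPM with full-length DROSHA and at 160, 121 and 36.7 CPM with p140, and its lowest value in each group was in replicate 3. On the list scale 4 of the abundant members turned to a lower value with p140, by -0.15 for miR-6724-5p, -0.23 for miR-6723-5p, -0.12 for miR-6777-3p and -0.087 for miR-6797-3p, and none of these passed the test there.

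Of the 8 past the filter in both groups 7 had groups without overlap, the exception being miR-6844, while 65.7% of all miRNAs tested had groups without overlap. Most of the 29 tested members were not past the filter level in every full-length library. That favours a higher value with p140, so medians by position are given as values only. The log2 fold changes of the 29 had medians of 1.79 for the 8 on whole-intron hairpins and 1.91 for the 19 with 1 splice site. The median was 1.67 for the 2 others, miR-6723-5p and miR-6724-5p. All 19 tested members of the list of miRNAs made without DROSHA were also higher (median 1.78, range 1.06 to 2.21), among them miR-320a (1.90 ± 0.46), miR-484 (1.70 ± 0.23), miR-877-5p (2.09 ± 0.47) and miR-3615 (1.71 ± 0.47). Of the 7 canonical miRNAs 1 was higher and 3 were lower.

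**Figure D4:**
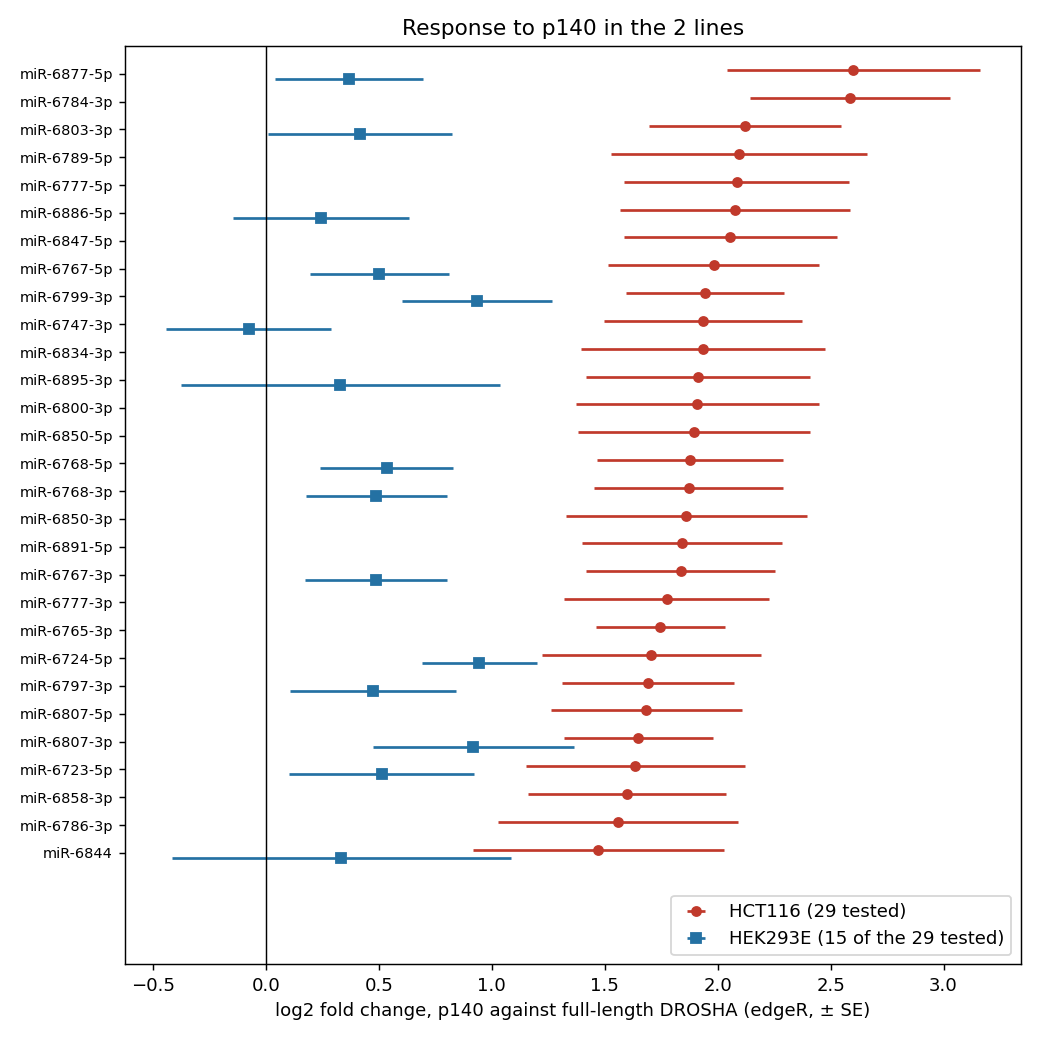
Log2 fold change of p140 against full-length DROSHA (points, bars ± SE, TMM scaling) for the 29 miRNAs tested in HCT116 (red) and the 15 of them also tested in HEK293E (blue). In HCT116 all lie between 1.47 and 2.60; in HEK293E the 15 lie between -0.08 and 0.95.

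In HEK293E the same exchange gave fewer calls. Of the 183 members 20 passed the filter, and 1 of them was higher and 0 lower by edgeR's quasi-likelihood test, whereas 5.29% of all 416 miRNAs tested were higher and 21.2% lower (26.4% in all). At an unadjusted p under 0.05 there were 3. The 1 member called was miR-6724-5p, which stood at 196, 215 and 134 CPM with full-length DROSHA and at 341, 357 and 289 CPM with p140. All p140 libraries were above all full-length ones, with a log2 fold change of 0.95 ± 0.26 (edgeR adjusted p = 0.0185). Of the 20, 11 were past the filter level of 43.7 CPM in every library of both groups. Another 6 were past it in every p140 library but not in every full-length library, and 1 the reverse. The 11 had log2 fold changes from -0.08 to 0.95, with a median of 0.49 beside -0.04 over all miRNAs tested. With library sizes set by the list of miRNAs made without DROSHA the median of the 20 was -0.26 in place of 0.49, and 16 of the 20 estimates were negative in place of 2, while the median of all miRNAs moved to -0.74.

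miR-6720-5p was the 1 that passed the filter through the full-length libraries alone, and so had to be lower with p140. It has no host gene on its strand and lies opposite FOXF2, a forkhead transcription factor gene, and it was read in HEK293E cells alone. Its CPM was 49.1, 85.9 and 95.3 with full-length DROSHA and 14.8, 37.8 and 36.6 with p140, without overlap. The log2 fold change was -1.22 ± 0.43, which did not pass the test. miR-6799-3p, from AP2A1 (a subunit of the adaptor complex of endocytosis), had 0.93 ± 0.33 (edgeR adjusted p = 0.0608).

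Replicate numbers were taken to pair the samples in this comparison, from correlations and not from the labels. The test above does not use that pairing, and with the replicate block 6 members were higher and 1 lower. Calls over all miRNAs increased as well, to 16.8% higher and 27.2% lower (44.0% in all). The 6 were past the filter in both groups. Those higher were miR-6724-5p (0.96 ± 0.20, edgeR adjusted p = 1.08e-05), miR-6799-3p (0.90 ± 0.28, adjusted p = 0.00424) and the 4 rows of miR-6767 and miR-6768 (0.50 to 0.54). miR-6720-5p was the one lower (-1.25 ± 0.42). The list scale gave 0 members higher and 2 lower, beside 50.96% of all miRNAs lower. Leaving out full-length replicate 3, p140 replicate 2 or replicate 3 of both groups gave 0 calls of members. Those fits called 21.1%, 19.2% and 11.5% of all miRNAs, in that order. In the list of miRNAs made without DROSHA 7 of 16 were higher and 0 lower (median 0.62), including miR-320a (0.77 ± 0.15) and miR-877-5p (0.81 ± 0.15).

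Whether p140 acted differently in the 2 lines was tested as an interaction in 12 libraries. None of the 38 members tested passed edgeR's quasi-likelihood test, beside 3.3% of all 515 miRNAs (2.14% higher and 1.17% lower in HEK293E), and 14 had an unadjusted p under 0.05. miR-6720-5p, with 0 reads in HCT116, has no fold change there and so no interaction estimate. The other 37 estimates were negative, meaning a smaller log2 fold change in HEK293E, with a median of -1.27 beside -0.03 over all miRNAs. Of the 38, 5 were past the filter level in every library of HCT116 p140 only, and 2 (miR-6720-5p among them) of HEK293E full-length only. Another 6 were past it in every library of all groups but HCT116 full-length, and 1 of all groups but HEK293E p140. Each of these patterns favours a negative estimate. The 7 past it in every library of HEK293E p140 only favour a positive one. The smallest adjusted p was that of miR-6765-3p (-2.23 ± 0.61, edgeR adjusted p = 0.0641). With the replicate block 13 of the 38 members passed, all lower in HEK293E, beside 19.8% of all miRNAs (7.77% higher and 12.04% lower). Of the 13, 4 were the rows of miR-6767 and miR-6768, and the smallest adjusted p were those of miR-6747-3p (-2.02 ± 0.37, edgeR adjusted p = 4.77e-05) and miR-6886-5p (-1.88 ± 0.38, adjusted p = 0.000276). miR-6747-3p, whose CPM in HEK293E was 161, 305 and 143 with full-length DROSHA and 104, 232 and 191 with p140, had a log2 fold change of -0.08 there and 1.93 in HCT116. DESeq2 called 2 members, leaving out HCT116 p140 replicate 3 called 10, and leaving out HEK293E full-length replicate 3 called 1. Of all miRNAs those fits called 4.08%, 14.9% and 3.93%. Scaled by the list the median was -0.28, with 23 of the 38 estimates negative and 15 positive, so the sign was not shared on that scale. By DESeq2 and by total counts all 38 were negative. These counts include miR-6720-5p, and the cause of the common sign was not tested.

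Between the 2 lines with full-length DROSHA more of the tested members were called higher in HEK293E than lower, mostly among those that the filter favours there. Of 28 members tested, 16 were higher and 5 lower in HEK293E by edgeR's quasi-likelihood test, beside 33.7% higher and 30.4% lower (64% in all) of 517 miRNAs. Scaled by total counts the members split 19 and 1, beside 60.9% and 14.7% of all miRNAs, and scaled by the list 14 and 9, beside 21.3% and 32.7%. Of the 28, 16 passed the filter with every HEK293E library but not every HCT116 library past its level, which favours a higher value in HEK293E. Another 3 passed it the other way round, which favours a higher value in HCT116. The 7 past its level of 18.2 CPM in every library of both lines gave 2 higher calls, miR-6768-5p (1.96) and miR-6797-3p (1.06), and 2 lower, miR-6886-5p (-1.38 ± 0.40) and miR-6723-5p (-1.12 ± 0.37). Both lower ones overlapped in CPM between the lines. miR-6886-5p held 73.8 ± 6.87 CPM in HEK293E and 90.4 ± 46.3 in HCT116, and miR-6723-5p 50.6 ± 23.4 and 54.2 ± 12.2. Their fold changes thus depend on the TMM scaling, since total counts moved the median of all miRNAs from 0.05 to 1.11.

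The 8 with the largest log2 fold changes towards HEK293E were all among the 16 and are given as values only. miR-6720-5p had 63 reads in the HEK293E full-length libraries and 0 of 2430711 in those of HCT116, and was at least 64.4-fold higher against a floor of 3 reads over the HCT116 group. In the p140 libraries it had 18 reads against 0.

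Next by size was miR-6894-3p, which ends an 88 nt intron of KDM5C, an X-linked histone demethylase gene. It stood at 35.7, 60.1 and 32.8 CPM in HEK293E and at 1.26, 1.14 and 1.31 CPM in HCT116, a log2 fold change of 3.84 ± 0.52. The others of the 8 were miR-6803-3p (2.84), miR-6820-3p of POLR2F (2.57), miR-6767-5p (2.31), miR-6832-3p of PRRC2A (2.29), miR-6768-3p (2.28) and miR-6767-3p (2.23). miR-6803-3p stood at 75.8, 133 and 44.7 CPM in HEK293E and at 6.31, 3.43 and 6.54 CPM in HCT116.

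The other 3 that were lower in HEK293E were miR-6850-5p (-2.32 ± 0.48), miR-6765-3p (-1.98 ± 0.39) and miR-6789-5p (-1.39 ± 0.44). Of these, miR-6850-5p and miR-6765-3p were past the filter level in every HCT116 library but not in every HEK293E library. miR-6850-5p had no overlap in CPM, with 17.8, 8.59 and 8.93 in HEK293E and 40.4, 24.04 and 19.6 in HCT116. miR-6765-3p and miR-6789-5p come from whole-intron hairpins, and their libraries overlapped in CPM between the lines. The levels of the host transcripts were not measured here.

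Few members could be tested in the serum experiment, and 2 of them passed the test. In wild-type HCT116 cells 11 of the 183 members passed the filter, and 1 was higher and 1 lower in 0.1% FBS than in 9.1% FBS by edgeR's quasi-likelihood test. Of all 577 miRNAs tested 25.5% were higher and 20.3% lower, 45.8% in all. miR-6777-3p of SREBF1 stood at 12.5, 11.5 and 7.44 CPM in low serum and at 6.87, 6.95 and 5.19 CPM in high serum, without overlap, a log2 fold change of 1.10 ± 0.30. It was past the filter level of 5.27 CPM in every low-serum library but not in every high-serum library, which favours a higher value in low serum. Scaled by total counts its value was 0.70, which did not pass the test. miR-6723-5p stood at 12.4, 10.7 and 12.8 CPM in low serum and at 30.4, 21.9 and 34.8 CPM in high serum, also without overlap, and passed the filter in both groups. It fell by 0.86 ± 0.23 on the log2 scale (edgeR adjusted p = 0.0149).

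Replicate numbers were taken to pair these samples too, although only replicate 3 was set apart by its number. With the replicate block 1 member was higher and 3 lower of 11, beside 33.3% and 30.3% of all miRNAs (63.6% in all). The added ones were miR-6724-5p (-0.79 ± 0.20, edgeR adjusted p = 0.000182), past the filter in both groups, and miR-6768-5p (-1.17 ± 0.36). The latter was past the filter level in every high-serum library but not in every low-serum library. Without low-serum replicate 1 only 1 call was left, and it was lower, beside 35.6% of all miRNAs called. Without high-serum replicate 3 there were 5 calls, without low-serum replicate 2 there were 4 and without replicate 3 in both groups 6, with 1 higher in each of these. These last fits called 47.4%, 36.6% and 58.9% of all miRNAs. On the list scale 0 were higher and 3 lower, beside 3.81% and 41.4% of all miRNAs. Of 14 tested miRNAs of the list made without DROSHA 7 were higher, among them miR-320a (0.82 ± 0.17), and 3 lower, led by the mirtron product miR-1226-5p (-2.37 ± 0.35).

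Most hairpins delivered mainly one arm. Of 84 hairpins with at least 50 reads on both arms together, 58 gave more 3p reads, 24 more 5p reads and 2 equal numbers. The 95% exact interval of the 5p share excluded 50% in 52 of the 58 and in 16 of the 24. At least 80% of reads came from the 3p arm in 27 hairpins and from the 5p arm in 7. Of the 10 whole-intron hairpins 8 gave mostly the 3p arm, which ends at the splice site, and 2 the 5p arm.

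Among the 8 hairpins with most reads, miR-6747 gave 9 reads of 5p and 523 of 3p (1.69% 5p, 0.776 to 3.19). miR-6765 gave 15 and 423 (3.42% 5p), miR-6797 44 and 363 (10.8%) and miR-6777 75 and 370 (16.9%). miR-6886 and miR-6850 leaned to the 5p arm, with 844 and 114 reads (88.1%, 85.9 to 90.1) and 286 and 116 reads (71.1%). miR-6768 (54.8%) and miR-6767 (50.4%), whose rows are described above, lay nearest to equal use.

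In HCT116 the 5p share of the 8 hairpins was set side by side for the 2 forms of DROSHA. The largest difference was that of miR-6797, at 16.9% of 71 reads (95% exact interval 9.05 to 27.7) under full-length DROSHA and 7.14% of 84 reads (2.67 to 14.9) under p140, and these intervals overlap. For miR-6747 it was 0 of 65 reads, with a 95% exact interval up to 5.52%, and 3.88% of 103 reads. For miR-6765 the 5p arm had 2 of 133 and 5 of 185 reads. For miR-6767 the shares were 48.8% and 51.2%, and for miR-6768 57.6% and 57.5%. For miR-6886 the 5p arm made up 92.6% of reads under full-length DROSHA and 92.9% under p140, and it was 90.4% in the knockout with GFP. It was lower in wild-type cells of the serum experiment, at 72.7% of 55 reads in 9.1% FBS and 58.1% of 62 reads in 0.1% FBS. For miR-6850 it was 74.7% and 74.3% with the 2 forms and 70.8% in the knockout. For miR-6777 it was 13.98%, 17.4% and 19.05%. These shares pool the replicates of a group and carry no test.

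**Figure D5:**
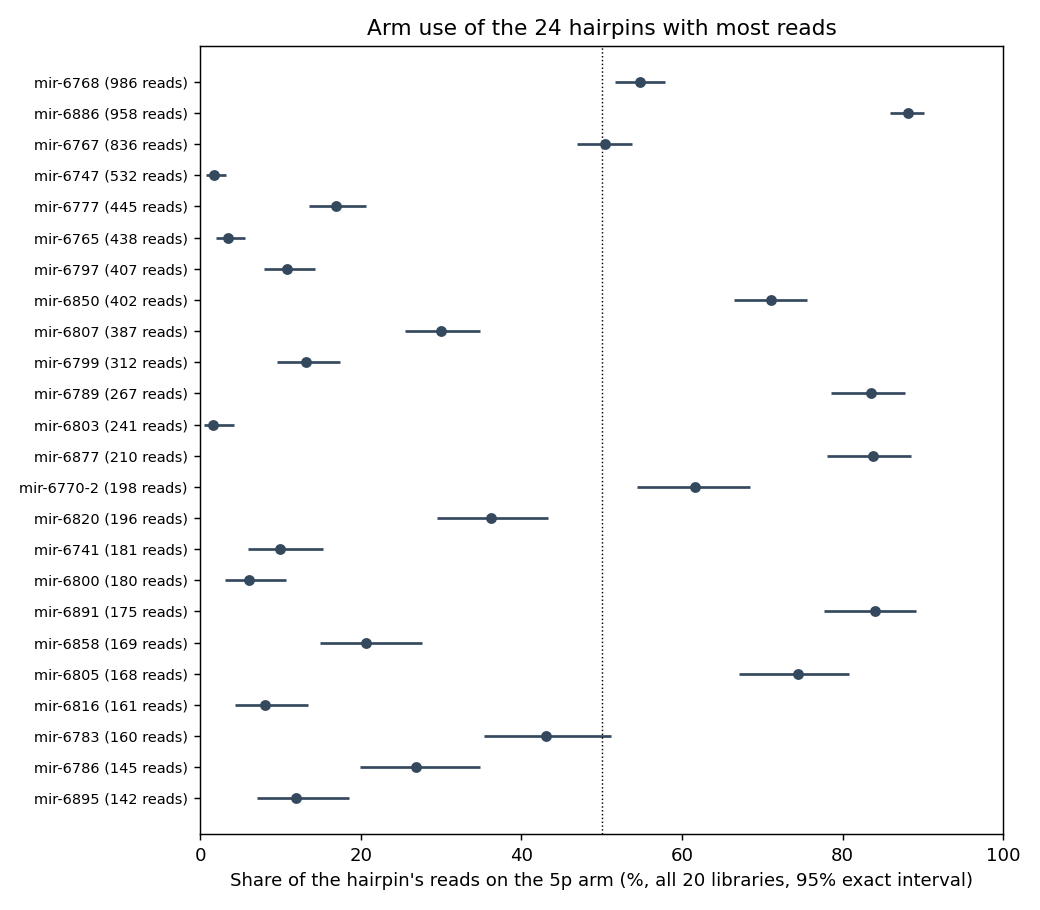
Share of a hairpin's reads on its 5p arm (%, linear axis) over all 20 libraries, with 95% exact intervals, for the 24 hairpins with most reads. miR-6747 and miR-6803 lie at 1.69% and 1.66%, miR-6886 at 88.1%, and miR-6767 at 50.4%.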

How the data were processed

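Members and lists were chosen with earlier results of these data known. The authors deposited raw read counts, 1 whole number for each mature miRNA of each hairpin. Per the submitters' processing notes the authors used cutadapt, STAR and bedtools with hg38. For their versions, and for strand, spliced and multiply mapped reads, the rule is not given in the sources used here. Of miRNAs listed at several hairpins the copy with most reads was kept. No spike-in counts were analysed here.

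Each comparison was fitted over the whole table by edgeR's quasi-likelihood test (version 4.0.16, R 4.3.3) after TMM scaling and filterByExpr with min.count 10; p-values were adjusted by Benjamini-Hochberg and called under 0.05. SE is the size of the log2 fold change divided by the square root of F. Tests were two-sided. The fits were tested on simulated data. Shares were compared by exact permutation over libraries, and 95% intervals are exact. No 2 libraries were identical, and replicates differed by more than counting noise.

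Correlations of deviations between same-numbered libraries were 0.474, 0.362 and 0.676 in HCT116, 0.565, 0.346 and 0.373 in HEK293E and 0.263, 0.15 and 0.67 in the serum experiment, all over 0.1, so numbers were taken to pair samples there. Replicates 1 and 2 of different groups correlated as well, at 0.297 and 0.37 in HCT116 and 0.476 and 0.261 in the serum experiment. In these 2 experiments only replicate 3 was thus set apart by its number. Differently numbered libraries of HEK293E reached at most 0.151. Between the lines they were -0.15, 0.186 and -0.094, and numbers were not taken to pair.

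Named with values are the 12 members with most reads, up to 8 called members in each direction per comparison, members with at least 5 knockout reads (those with 5 to 9 as a range) and the 8 hairpins with most reads. miR-6720-5p and miR-6799-3p in HEK293E, and those named as called with the replicate block, were named after their values were seen. Alternatives were DESeq2 1.42.0, no filter, 2 other scalings, a replicate block, 1 fit over 18 libraries, each replicate left out, and a membership minimum of 100 reads. Leaving out replicate 3 everywhere, and leaving out named members, was added after seeing the data. Sequences and positions used RefSeq GRCh38.p14 and GENCODE 29. The host gene of one hairpin, with its position and sequence, is not reported here.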

Additional observations from a re-analysis of the deposited data

Results flagged for a closer look

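The 171 names of the range that fell under the 20-read minimum enter none of the comparisons, yet their reads were also concentrated in the knockout with GFP. They took 0.107% of its reads, 41 of 38288, and 0.00117% of those of untreated wild type, 10 of 856658. The ratio of CPM was 91.7 (95% exact interval 45.2 to 205, counting error only), with 1 library on each side. In the HCT116 rescue libraries they took 0.0312 ± 0.0127% of reads with p140 and 0.00876 ± 0.00159% with full-length DROSHA (SD, n = 3 each), without overlap.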

How the results depend on the processing

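Members called with p140 in HCT116 numbered 29, against 53 in 1 fit over 18 libraries, 0 scaled to the list of miRNAs made without DROSHA, 48 without replicate 3 in every group, and 16 to 56 with 1 library left out. Of all miRNAs these settings called, in that order, 59.6%, 52.7%, 37.4%, 74.4% and 37.6 to 69.2%. In HEK293E the 1 call became 3 with no filter, 2 on the list scale, 2 by total counts, 7 with the replicate block, 3 in 1 fit over 18 libraries, 0 without replicate 3 and 0 to 3 with 1 library left out. In the serum comparison the 2 calls became 7 with no filter, 4 with the replicate block, 4 in 1 fit over 18 libraries, 6 without replicate 3 and 1 to 5 with 1 library left out. Between the lines the 21 calls became 47 with no filter and 40 in 1 fit over 18 libraries, and were 15 to 30 with 1 library left out. The main fit called 64.0% of all miRNAs, and the others, in that order, 24.3%, 58.5% and 52.8 to 64.0%. The interaction's 0 calls became 2 with DESeq2, 13 with the replicate block, 3 without replicate 3 and 0 to 10 with 1 library left out. The main fit called 3.30% of all miRNAs, and the others, in that order, 4.08%, 19.8%, 7.14% and 0.883 to 14.9%. The cause of these changes was not tested, beyond the number of miRNAs or libraries that a setting adds or removes. The replicate block moved no other count of members by over 1.5 times. Over all miRNAs it moved the calls from 110 to 183 in HEK293E and from 17 to 102 in the interaction.

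On the list scale miR-6724-5p (-0.15), miR-6723-5p (-0.23), miR-6777-3p (-0.12) and miR-6797-3p (-0.087) changed sign in HCT116, as did miR-6767-5p (-0.24), miR-6767-3p (-0.26), miR-6768-5p (-0.21) and miR-6768-3p (-0.26) in HEK293E (none passed the test there), where the median of the 20 members turned from 0.49 to -0.26. Differences in the members' share kept their sign in every alternative run, with ranges of 0.274 to 0.376 percentage points (HCT116), 0.110 to 0.157 (HEK293E) and -0.0133 to -0.0109 (serum) when 1 replicate number was left out. Without miR-6767 and miR-6768 they were 0.287, 0.108 and -0.0106. The median log2 ratio in the knockout was 6.81 at a minimum of 5 reads and 6.95 at 20. Whole-intron hairpins numbered 6 at a tolerance of 2 nt and 12 at 10 nt.

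Limits of depth: the knockout with GFP held 38288 reads, so 1 read is worth 26.1 CPM there, and 154 members could not be tested in HCT116. The single libraries allow no test.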

Other observations

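Untreated wild-type HCT116 cells and wild-type HCT116 cells in 9.1% FBS differed in the members' share. The untreated library held 0.0105% (95% exact interval 0.00845 to 0.0129), below each of the libraries in 9.1% FBS, which held 0.0386%, 0.0341% and 0.0276%. Per 1000 reads of the list of miRNAs made without DROSHA the values were 7.57 against 28.99, 30.2 and 29.6. miR-6768-5p, miR-6768-3p, miR-6767-5p and miR-6767-3p each had 0 reads in the untreated library and 15 to 31, 9 to 15, 10 to 15 and 10 to 15 reads in those in 9.1% FBS. The untreated group is a single library, and library and group cannot be told apart.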
